A study of Mus musculus with 4 samples.

Results

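The genes described here are 35 imprinted genes, chosen by gene symbol from a list, of the 55421 genes in the deposited count table. All 35 were found. By their textbook class in tissues where they are imprinted, 19 are expressed from the paternal allele and 14 from the maternal allele, and for Gnas and Grb10 the expressed allele depends on tissue or transcript. Whether a gene keeps its class in the cells used here was not tested. RNA-seq was made from spermatogonial stem cell (SSC) cultures of CD1 mice, derived from testes of pups aged 6 days and grown on mitotically arrested mouse embryonic fibroblast (MEF) feeders. The control cultures (Veh, 2 libraries) stayed in complete SSC medium. The treated cultures (NRRA, 2 libraries) were kept for 2 days in a nutrient restriction medium made mostly of a balanced salt solution, together with retinoic acid (RA). The labels name N2 supplement, bFGF and GDNF for every library, but by the study's methods the restriction medium holds only a small share of complete medium, so these were diluted in NRRA as well. The study describes the 2 libraries of a group as biological replicates that are independent of each other, and the labels do not say from which cultures or mice they came.

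An imprinted gene is transcribed mainly from the allele of 1 parent. The choice is set by an imprinting control region whose DNA is methylated on the maternal or the paternal chromosome. Imprints are erased in primordial germ cells and written again by sex, so that in the male germline the H19-Igf2 and Dlk1-Meg3 control regions gain methylation before birth while the regions that are methylated in oocytes stay free of it. Many imprinted genes control the growth of the embryo and placenta and are active in fibroblasts. The deposited counts do not separate alleles, and "paternally expressed" and "maternally expressed" are used below only as names of the classes.

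Levels are given as CPM, each gene's count relative to the scaled size of its library. Fold changes and adjusted p-values are from edgeR's quasi-likelihood test with Benjamini-Hochberg adjustment over 20232 genes, and a gene was called at an adjusted p under 0.05. The 4 libraries held between 28022265 and 31604769 counts. Stra8, an RA-induced gene needed for meiotic initiation, was at 9.61 and 10.1 CPM in Veh and at 1862 and 1851 CPM in NRRA (log2 fold change 7.56, SE 0.0354, adjusted p = 1.33e-37). By the study, RA alone is enough to activate it, so its rise does not by itself show entry into meiosis.

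RefSeq promoter windows (GRCm38.p6), each covering 250 bases before and 50 bases after a start, were at hand for 27 of the 35 members. They were searched on both strands for TGCCGC, the core hexamer bound by the imprint-protecting zinc finger protein ZFP57 when its CG is methylated. The hexamer lay in 10 of 41 windows of members (24.4%) and in 11.6% of all 32851 windows. Member windows also held more CG pairs (medians of 10 in the paternal and 13 in the maternal class, beside 7 over all windows), and the part of this in the shares was not tested. By gene, 6 of 14 paternally expressed and 2 of 11 maternally expressed members had it, against 13.1% of all symbols. A gene with more windows has more chances to hold it. By window it lay in 7 of 22 of the paternal and 2 of 13 of the maternal class. The 250 bases before the start are shown for the 3 paternally expressed genes with the most matches, ties being settled by the number of CG pairs, to show where the hexamer lies; that these windows are rich in CG follows from that choice. The capitals mark the hexamer or its reverse complement GCGGCA. The Mest window, at chr6:30737800-30738049 on the plus strand, had 2 matches and 14 CG pairs. Plagl1, at chr10:13090582-13090831 on the plus strand, had 1 match and 19 CG pairs, and Mcts2, at chr2:152686898-152687147 on the plus strand, had 1 match and 20 CG pairs.
Mest: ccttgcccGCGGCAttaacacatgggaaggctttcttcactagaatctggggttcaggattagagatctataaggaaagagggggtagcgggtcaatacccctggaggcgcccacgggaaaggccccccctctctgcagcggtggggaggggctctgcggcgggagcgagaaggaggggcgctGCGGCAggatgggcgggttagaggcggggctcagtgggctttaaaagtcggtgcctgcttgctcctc
Plagl1: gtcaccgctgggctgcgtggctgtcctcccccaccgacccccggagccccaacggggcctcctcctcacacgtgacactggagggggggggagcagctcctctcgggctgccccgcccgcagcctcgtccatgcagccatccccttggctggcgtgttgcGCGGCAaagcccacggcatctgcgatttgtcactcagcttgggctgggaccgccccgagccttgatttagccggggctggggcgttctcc
Mcts2: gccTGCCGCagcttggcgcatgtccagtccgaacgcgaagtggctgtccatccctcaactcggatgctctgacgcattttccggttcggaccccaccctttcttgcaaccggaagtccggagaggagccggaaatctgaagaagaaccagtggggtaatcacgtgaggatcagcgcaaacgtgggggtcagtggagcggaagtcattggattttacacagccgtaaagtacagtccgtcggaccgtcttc
A match is a string of letters and not a measured binding site. Of the genes shown, Mest and Mcts2 fell in NRRA and Plagl1 was not called, with values below.

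The members did not move in 1 direction. In NRRA, 10 members rose and 14 fell, or 68.6% of the 35, where 56.4% of all tested genes were called (27.9% higher and 28.4% lower). At least 2-fold changes were called for 4 members upward and 3 downward, 20.0% of the members against 13.3% of all tested genes (6.29% upward and 7.02% downward). Magel2 is in this share and in the counts of rises here, although it passed the filter on low counts only through the NRRA libraries. In 30 of the 35 members (85.7%) the 2 NRRA libraries lay on 1 side of both Veh libraries, as in 76.7% of all tested genes. With scaling to library size alone, 12 members were called higher and 10 lower, so which direction held more members depended on the scaling. Of these, 5 higher and 5 lower were paternally expressed, and 6 higher and 4 lower were maternally expressed. The median log2 fold change of the members was -0.11, beside 0.0003 over all tested genes. Among the 19 paternally expressed genes 4 rose, 7 fell and 8 were not called, with a median of -0.14 (SD over the 4 pairs of libraries 0.0636). Among the 14 maternally expressed genes 6 rose, 6 fell and 2 were not called, with a median of 0.11 (SD 0.0757). These medians rest on single libraries. Without Veh replicate 1 the paternal median was -0.23, without Veh replicate 2 it was -0.05 and without NRRA replicate 1 it was -0.23. Without Veh replicate 2 the maternal median was 0.0012 and only 3 maternally expressed genes were called lower.

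**Figure D1:**
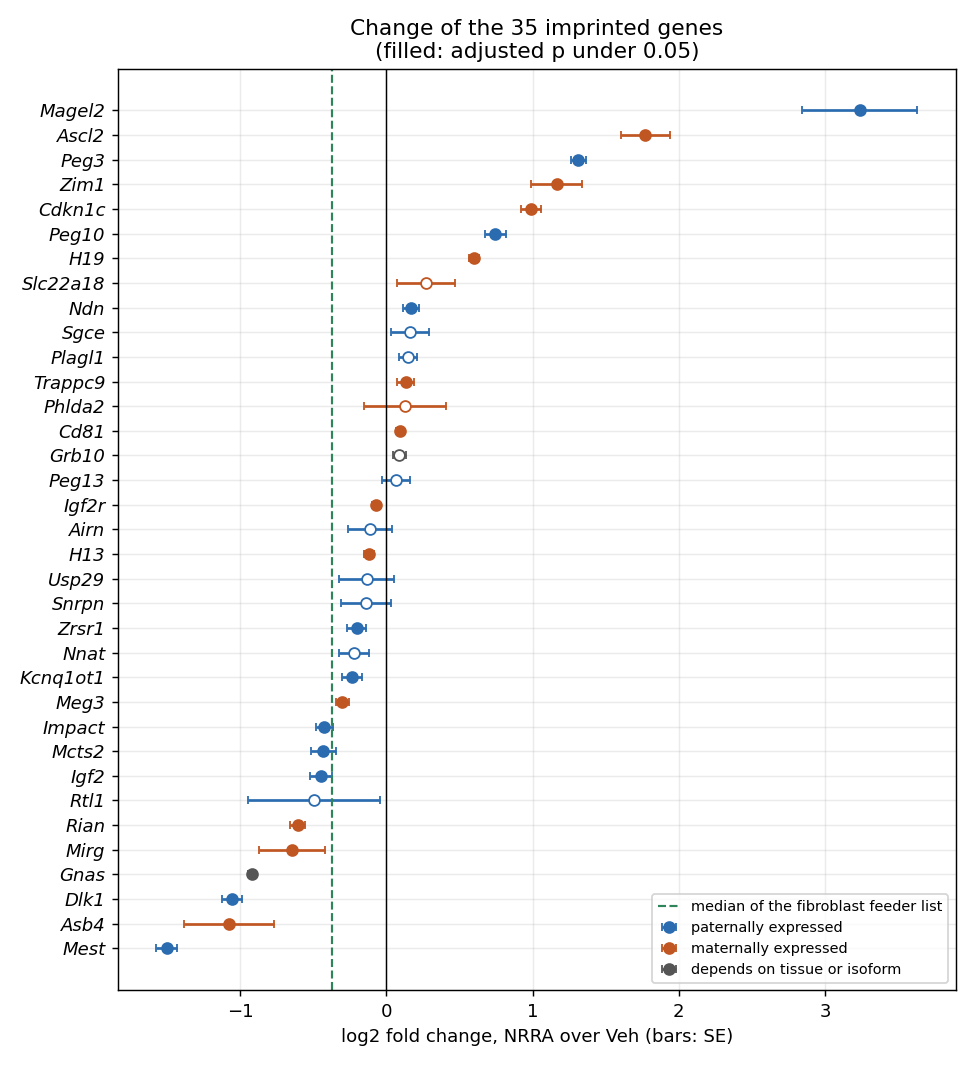
Log2 fold change (NRRA over Veh, bars SE) of each of the 35 imprinted genes, coloured by parental class, filled where the adjusted p was under 0.05. The values run from -1.5 for Mest to 3.24 for Magel2, both paternally expressed, and members of both classes lie on each side of 0; the dashed line is the median of the 32 fibroblast feeder genes, -0.37.

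Feeder RNA moved with the groups. The 32 genes of a fibroblast list, summed, stood at 13240 and 13160 CPM in Veh and at 10070 and 9844 CPM in NRRA, and 26 of them fell and 3 rose (90.6% called, beside 56.4% of all tested genes). The sum leans on Fn1, the fibronectin gene, which alone stood at 6136 and 6080 CPM in Veh and at 4357 and 4347 CPM in NRRA. S100a4, a fibroblast marker, fell by 1.01 on the log2 scale from counts of only 26 and 29. Thy1, also on that list, fell by 0.92, but SSCs carry it on their surface as well, so it does not mark feeders alone here. The collagens Col1a1 and Col1a2 fell by 0.10 and 0.19, and Col3a1 rose by 0.61. The largest falls in the list were those of Col6a3 (2.11), Timp1 (1.52) and Lum (1.43). The other 2 fibroblast genes that rose were Pdgfra, a growth factor receptor, by 0.98, and Fap, a surface protease, by 3.73 (mean 0.65 CPM in Veh and 8.64 CPM in NRRA). The germ cell markers Ddx4 (log2 fold change 0.02, not called) and Dazl (0.16, called) stood near their Veh level, while the 12 genes of the germ cell list summed to 2667 and 2720 CPM in Veh and to 2161 and 2166 CPM in NRRA. Of these 12 genes 8 fell and 3 rose (91.7% called). In mean CPM, Zbtb16 went from 441 to 81.6 and Etv5 from 301 to 76.7, whereas Sall4 went from 181 to 323 and Sohlh1 from 52.2 to 100.5. For the somatic cells of the testis, Sox9 went from 735 and 874 counts to 304 and 284, Fshr had 0 counts in all libraries, and Amh and Insl3 had between 0 and 6. Cyp17a1 had between 6 and 15 counts. The list of 13 genes summed to 44.4 and 48.7 CPM in Veh and to 30.2 and 29.5 CPM in NRRA, a fall carried by Sox9, whose mean went from 28.2 to 9.37 CPM. Only 6 of the 13 were tested, with a median log2 fold change of 0.12, and Inha and Star rose by 0.53 and 0.31. The part of these cells in the values of imprinted genes was not tested, and in such bulk libraries fewer cells of a type and less RNA per cell cannot be told apart.

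Levels of the members spanned a wide range. Per kilobase of exon that no gene on the same strand shares (RPKM), the highest in Veh were Cd81, a tetraspanin of the cell surface, at 81.7, Igf2r at 61.2, Gnas at 53.3 and H19 at 42.0. Mcts2 at 19.5, H13 at 14.8 and Igf2 at 12.5 followed. The lowest were Magel2 at 0.046, Rtl1 at 0.10 and Usp29 at 0.197. Summed over its 19 members, the paternally expressed class held 418 and 446 CPM in Veh and 435 and 435 CPM in NRRA. The groups overlapped (log2 ratio 0.01, exact permutation test, two-sided, p = 1). The 14 maternally expressed members held 1278 and 1281 CPM in Veh and 1298 and 1303 CPM in NRRA, a log2 ratio of 0.02 (exact permutation test, two-sided, p = 0.333, the smallest that 2 against 2 libraries allow). As shares of all counts without the scaling, the paternal class held 0.0405% and 0.0433% in Veh and 0.0449% and 0.0448% in NRRA, without overlap. The maternal class held 0.124% in both Veh and 0.134% in both NRRA libraries. Both sums lean on 1 gene. Without Peg3 the paternal sum had a log2 ratio of -0.22, and without Igf2r the maternal one had 0.10.

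**Figure D2:**
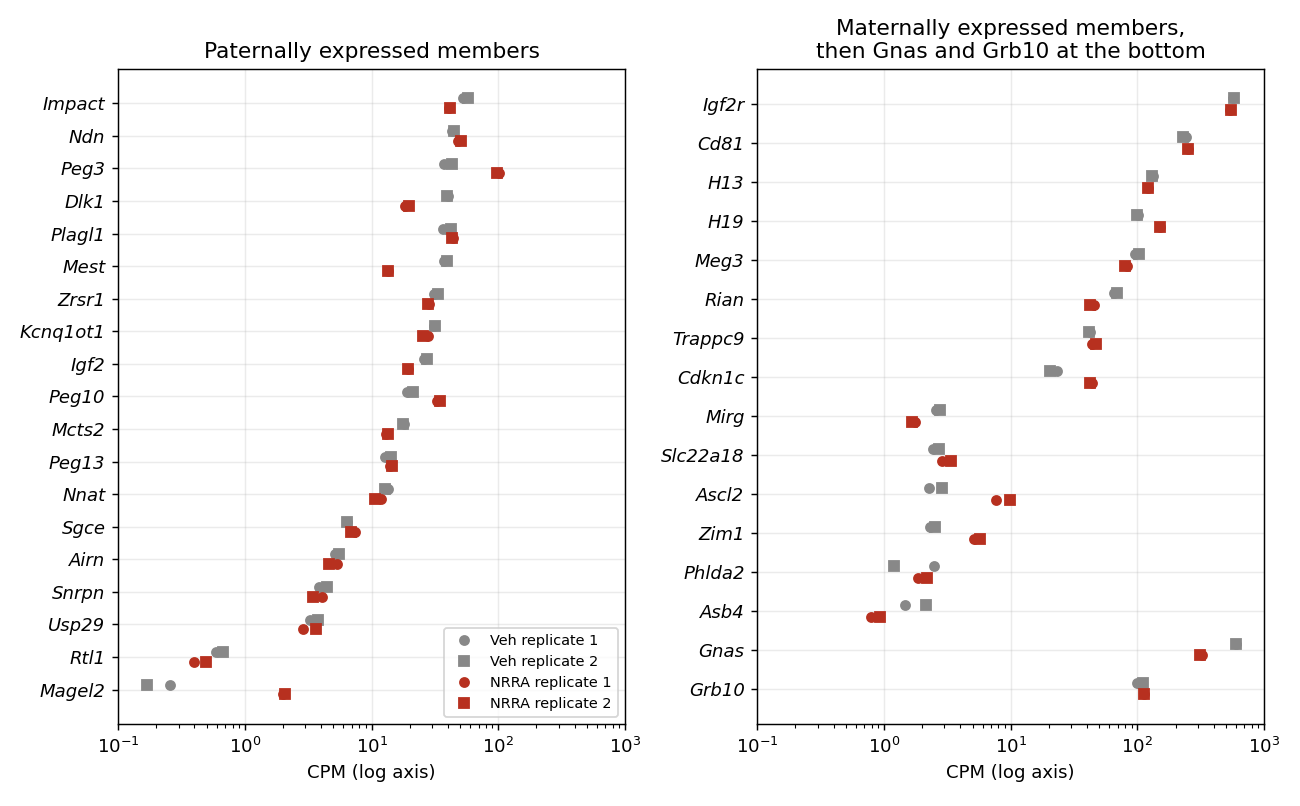
CPM (log axis) of each member in each of the 4 libraries, with Veh in grey and NRRA in red; circles are replicate 1 and squares replicate 2. Replicates mostly lie on top of each other. By fold, the groups are furthest apart for Magel2, Ascl2, Mest, Peg3, Zim1, Asb4, Dlk1, Cdkn1c and Gnas.

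The H19-Igf2 locus on chromosome 7 holds a growth factor and a non-coding RNA that share enhancers. Igf2 (chr7:142650766-142666816), the embryonic insulin-like growth factor, was at 25.7 and 27.2 CPM in Veh and at 19.5 and 19.4 CPM in NRRA. Both NRRA libraries lay below both Veh libraries, and Igf2 fell by 0.45 on the log2 scale (SE 0.0735, adjusted p = 9.97e-06). H19 (chr7:142575529-142578143), a long non-coding RNA that restrains growth and is the precursor of miR-675, was at 100 and 99.4 CPM in Veh and at 152 and 151 CPM in NRRA. The groups did not overlap, and H19 rose by 0.60 (SE 0.0347, adjusted p = 6.39e-14), or 1.51-fold. So the paternally and the maternally expressed gene of this locus moved apart, and the log2 ratio of Igf2 to H19 went from -1.96 and -1.87 in Veh to -2.96 in both NRRA libraries. Of the exonic bases of Igf2, 62.8% are shared with Gm49394 on the same strand, where reads were mostly left unassigned.

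Of 4 further genes tied to growth signalling or to its imprinted genes, only Igf2r was called, and its change was small. Igf2r (maternally expressed), the receptor that carries IGF2 to lysosomes for breakdown, was at 564 and 575 CPM in Veh and at 538 and 546 CPM in NRRA. The groups did not overlap, but the fall was only 0.07 (adjusted p = 0.0119). It was lost without Veh replicate 2 (-0.06, adjusted p = 0.0585) and without NRRA replicate 1 (-0.06, adjusted p = 0.135), and with scaling to library size alone the sign turned (0.02). Airn, the non-coding RNA whose transcription silences the paternal Igf2r allele, was at 5.12 and 5.57 CPM in Veh and at 5.31 and 4.58 CPM in NRRA, and the groups overlapped (log2 fold change -0.11, adjusted p = 0.556). Grb10, an adaptor that damps insulin and IGF receptor signalling, was at 99.6 and 111 CPM in Veh and at 112 CPM in both NRRA libraries (0.09, adjusted p = 0.0713). The value of Grb10 turned on the Veh libraries, with 0.17 without Veh replicate 2 and 0.02 without Veh replicate 1. Grb10 was called higher with library size alone (adjusted p = 6.42e-04), without a filter on low counts (0.037) and with the replicate block (0.0354), and not with DESeq2 (0.195). Plagl1, a zinc finger factor known to act on other imprinted genes, was at 36.4 and 42.5 CPM in Veh and at 44.2 and 43.3 CPM in NRRA (0.15, adjusted p = 0.0505). It lay at the threshold and was called higher with 5 other settings (adjusted p from 0.00224 to 0.0466) as well as without Veh replicate 2 (0.26, adjusted p = 6.62e-04). It was not called with DESeq2 (adjusted p = 0.166) or without Veh replicate 1 (0.04, adjusted p = 0.624).

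The Kcnq1 domain, next to H19-Igf2 on chromosome 7, is controlled by the non-coding RNA Kcnq1ot1, which silences neighbours on the paternal chromosome. Kcnq1ot1 was at 31.0 and 31.7 CPM in Veh and at 27.9 and 25.5 CPM in NRRA, and it fell by 0.23 (adjusted p = 0.00463), a call lost without NRRA replicate 2 (-0.17, adjusted p = 0.0885) and with scaling to library size alone (-0.14). Cdkn1c (chr7:143458339-143461050), the p57 inhibitor of cyclin-dependent kinases, was at 23.3 and 20.4 CPM in Veh and at 43.8 and 42.6 CPM in NRRA. The groups were well apart, and Cdkn1c rose by 0.99 (SE 0.068, adjusted p = 2.12e-12), or 1.98-fold. Of its exonic bases, 30.7% overlap Gm44732 on the opposite strand, which rose by 1.01, and counts of the pair cannot be told apart there. Ascl2, a basic helix-loop-helix factor needed in the placenta, was low at 2.28 and 2.85 CPM in Veh and reached 7.73 and 9.92 CPM in NRRA. It rose by 1.77 (SE 0.168, adjusted p = 1.04e-09), the largest rise among the maternally expressed members. Cd81 was at 240 and 230 CPM in Veh and at 252 and 250 CPM in NRRA, a rise of 0.09 (adjusted p = 0.00762) that was lost without Veh replicate 2 (0.06, adjusted p = 0.117) and without NRRA replicate 1 (0.09, adjusted p = 0.0522). Slc22a18, a transporter, had a log2 fold change of 0.27 (adjusted p = 0.264) and Phlda2, a brake on placental growth, one of 0.13 (adjusted p = 0.724), and neither was called. Phlda2 was at 2.50 and 1.21 CPM in Veh, so that its replicates differed more than its groups.

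In the Dlk1-Meg3 domain on chromosome 12, genes of both classes fell. Dlk1 (chr12:109452823-109463336), a transmembrane ligand related to Notch ligands, was at 40.4 and 39.0 CPM in Veh and at 18.4 and 19.8 CPM in NRRA. It fell by 1.06 (SE 0.068, adjusted p = 5.35e-13), and Veh was 2.08-fold higher. The maternally expressed non-coding RNAs also fell, but by less. Meg3 went from 96.3 and 102 CPM to 82.1 and 79.3 CPM (a fall of 0.30, adjusted p = 7.96e-07). Rian, a host of small nucleolar RNAs, went from 64.9 and 68.8 CPM to 45.4 and 42.4 CPM (a fall of 0.61, adjusted p = 1.61e-10). Mirg, a host of microRNAs, fell by 0.64 from a low level (adjusted p = 0.0173), and this call was lost without Veh replicate 2 (adjusted p = 0.0781), without NRRA replicate 1 (0.0505), without NRRA replicate 2 (0.0763) and with DESeq2 (0.115). Rtl1, a gene derived from a retrotransposon, had counts of 16 and 20 in the Veh libraries and of 13 and 15 in the NRRA libraries and was not called (log2 fold change -0.50, SE 0.449, adjusted p = 0.368).

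Peg3, Zim1 and Peg10, from a pair of loci on chromosomes 7 and 6, rose. Peg3 (chr7:6703892-6730431), a large zinc finger protein, was at 37.2 and 42.8 CPM in Veh and at 101 and 98.1 CPM in NRRA. It rose by 1.31 (SE 0.0524, adjusted p = 2.44e-17), or 2.48-fold. Its maternally expressed neighbour Zim1, also a zinc finger gene, went from 2.32 and 2.52 CPM to 5.15 and 5.74 CPM and rose by 1.17 (SE 0.175, adjusted p = 2.52e-06). Usp29, a ubiquitin-specific peptidase gene that starts beside Peg3 on the other strand, was at 3.28 and 3.79 CPM in Veh and at 2.85 and 3.62 CPM in NRRA, with overlapping groups (log2 fold change -0.14, adjusted p = 0.575, and 0.03 without NRRA replicate 1). Peg10 (chr6:4747306-4760517), derived from a retrotransposon and needed for the placenta, went from 18.9 and 21.3 CPM to 33.1 and 34.5 CPM and rose by 0.75 (SE 0.0724, adjusted p = 1.62e-09). Sgce, the epsilon sarcoglycan gene that starts beside it, was not called (0.16, adjusted p = 0.31). Asb4, a maternally expressed substrate adaptor of a ubiquitin ligase, went from 1.47 and 2.15 CPM to 0.797 and 0.929 CPM and fell by 1.08 (SE 0.306, adjusted p = 0.00404), a call lost without Veh replicate 2 (-0.77, adjusted p = 0.0995).

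The Snrpn domain, which corresponds to the human Prader-Willi region, held the widest change. Magel2 (chr7:62377010-62381640), a MAGE protein that helps recycle membrane proteins from endosomes, had counts of 7 and 5 in the Veh libraries and of 65 and 62 after NRRA. That is 0.258 and 0.168 CPM against 1.99 and 2.06 CPM. It rose by 3.24 (SE 0.395, adjusted p = 9.35e-08), but it was the only member to pass the filter on low counts through the NRRA libraries alone, so that a difference was built into its being tested. Ndn, the related MAGE gene next to it, was at 43.3 and 45.1 CPM in Veh and at 48.5 and 50.9 CPM in NRRA. Its rise was only 0.17 (adjusted p = 0.00939), and it was lost without Veh replicate 1 (0.14, adjusted p = 0.0537), without NRRA replicate 2 (0.14, adjusted p = 0.109) and with DESeq2 (adjusted p = 0.0575). Snrpn, which encodes a core protein of spliceosomal particles, was at 3.87 and 4.43 CPM in Veh and at 4.08 and 3.45 CPM in NRRA and was not called (-0.14, adjusted p = 0.516). Its level is uncertain, since 52.4% of the longest Snrpn transcript is near identical to sequence of other genes. These include Gm38393 and Snurf, which share 27.3% of its exonic bases on the same strand, so not all of it is a copy elsewhere.

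Among the genes of other loci, Mest fell most. Mest (chr6:30723547-30748465), an enzyme of the alpha/beta hydrolase fold, was at 37.6 and 39.2 CPM in Veh and at 13.5 and 13.6 CPM in NRRA. It fell by 1.5 (SE 0.0725, adjusted p = 1.36e-15), and Veh was 2.83-fold higher. Its exons overlap those of Copg2 on the opposite strand over 23.1% of their length, and Copg2 itself was at 93.5 and 100 CPM in Veh and at 92.7 and 96.3 CPM in NRRA (log2 fold change -0.04, not called). Impact, which restrains the amino acid sensing kinase GCN2, went from 52.3 and 58.1 CPM to 40.5 and 41.9 CPM and fell by 0.42 (adjusted p = 4.19e-07). Mcts2, an intronless copy of a translation factor gene inside H13, went from 17.9 and 17.7 CPM to 12.9 and 13.5 CPM and fell by 0.43 (adjusted p = 1.60e-04). H13, the signal peptide peptidase, was at 132 and 130 CPM in Veh and at 121 and 120 CPM in NRRA and fell by 0.12 (adjusted p = 0.00409), a call lost with scaling to library size alone (-0.03). Zrsr1, a relative of the splicing factor U2AF, fell by 0.20 (adjusted p = 0.0101), and this was lost without Veh replicate 2 (-0.15, adjusted p = 0.111), without NRRA replicate 2 (-0.19, adjusted p = 0.0533), with DESeq2 (adjusted p = 0.0705) and with library size alone (adjusted p = 0.147). Nnat, the small membrane protein neuronatin, had a log2 fold change of -0.22 (adjusted p = 0.0661) and was not called. Peg13, a non-coding RNA in an intron of Trappc9, was not called either (0.06, adjusted p = 0.601, and -0.01 without Veh replicate 1). Trappc9, a part of a vesicle tethering complex, was called higher by 0.13 (adjusted p = 0.0481), which was lost without Veh replicate 1 (adjusted p = 0.0601), without Veh replicate 2 (0.136), without NRRA replicate 2 (0.395) and with DESeq2 (0.174).

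Gnas, the stimulatory G protein alpha subunit, was among the most abundant members and 1.89-fold higher in Veh. It stood at 596 and 597 CPM in Veh and at 321 and 310 CPM in NRRA, with no overlap. It fell by 0.92 (SE 0.0254, adjusted p = 9.71e-21). Of the exonic bases of Gnas (chr2:174284320-174346744), 22.0% overlap genes on the opposite strand. One of these, Gm20721, also fell, by 0.77, and the transcripts of the locus that differ in their expressed allele were counted as 1 gene.

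At 5 of the 8 loci that hold measured members of both classes, the balance between the classes did not overlap between the groups, whereas 76.7% of all tested genes did not overlap, so the count itself is no result about the loci. The log2 ratio of summed paternally to summed maternally expressed CPM was lower in both NRRA libraries than in both Veh libraries at 4 loci and higher at 1. Beside Igf2-H19, it went from -3.13 and -3.02 to -3.47 and -3.60 in the Kcnq1 domain, from -2.0 and -2.13 to -2.78 and -2.60 in Dlk1-Meg3, and from -2.89 and -2.88 to -3.23 and -3.15 at H13-Mcts2. It rose at Peg10, from 4.10 and 3.69 to 5.66 and 5.48. At the Peg3, Igf2r-Airn and Peg13-Trappc9 loci the groups overlapped. These ratios were formed from genes whose changes are given above and were not tested. They hold for the members summed and not for the whole locus. With further imprinted genes added, a choice made after the data were seen, the change at Dlk1-Meg3 was -0.08 with Dio3, the groups overlapping, and 0.63 with Dio3 and Begain, where the members alone gave -0.63. At Peg10, whose maternal side was Asb4 alone, it was 0.72 with Ppp1r9a, Pon2, Pon3, Tfpi2 and Calcr in place of 1.68. In the same way it went from -0.46 to -0.28 in the Kcnq1 domain, from 0.07 to 0.56 at Peg3 and from -0.06 to 0.29 at Peg13-Trappc9. For Igf2-H19 and H13-Mcts2 no such genes were added.

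**Figure D3:**
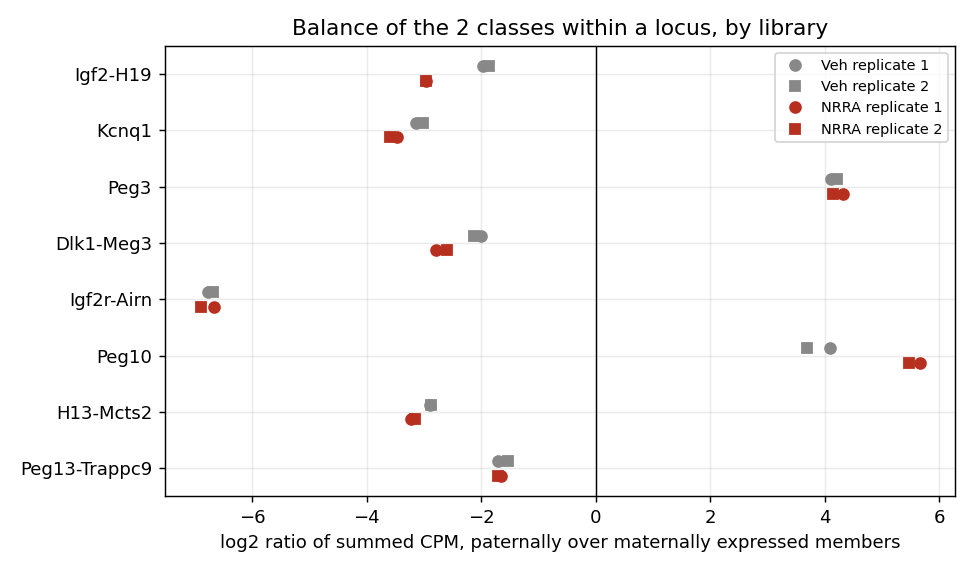
Log2 ratio of the summed CPM of paternally over maternally expressed members in each library, for the 8 loci with both classes; Veh is grey and NRRA red. The change from Veh to NRRA is -1.04 at Igf2-H19, -0.63 at Dlk1-Meg3 and 1.68 at Peg10, and near 0 at Igf2r-Airn. The values hold for the members only, and with Dio3 and Begain added the change at Dlk1-Meg3 is 0.63.

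A second list of 40 imprinted genes gave 33 tested genes, of which 14 rose and 10 fell (72.7% called, beside 56.4% of all tested genes), with a median of 0.06. At least 2-fold calls, with Klf14, Nap1l5 and Kcnk9 below included, were 27.3% of them, beside 13.3% of all tested genes. At least 2-fold higher were Dio3, the deiodinase that inactivates thyroid hormone, which went from 26 and 33 counts to 329 and 281 (log2 fold change 3.22), Begain (1.00) and Gatm, the first enzyme of creatine synthesis (1.17). Klf14, Nap1l5 and Kcnk9 were also called at least 2-fold higher, at 1.97, 1.74 and 1.71, but they passed the filter only thanks to the NRRA libraries. At least 2-fold lower were the amino acid transporter gene Slc38a4 (-1.64), the protease inhibitor Tfpi2 (-1.42) and Ddc, the decarboxylase of dopamine synthesis (-1.38). The gene of this list with the highest level per kilobase in Veh was Nap1l4, a nucleosome assembly factor, at 80.6 RPKM, and its log2 fold change was -0.23. Dio3 and Begain lie in the same domain as Dlk1 and rose where Dlk1, Meg3 and Rian fell.

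Of 30 tested genes that write, keep or erase imprints, 9 rose and 16 fell (83.3% called, where 56.4% of all tested genes were), with a median of -0.10. At least 2-fold calls, with Dppa3 below included, were 10.0% of them, below the 13.3% of all tested genes. Dnmt3l, the cofactor needed for imprints in germ cells, fell from 42 and 62 counts to 13 and 12 (log2 fold change -2.18, SE 0.359, adjusted p = 9.76e-06). Dppa3, which protects the maternal genome from demethylation in the zygote, went from 230 and 244 counts to 4 and 0, and no fold is given for counts this low. It passed the filter only thanks to the Veh libraries, so that a difference was built into its being tested. It is also uncertain because 54.1% of its longest transcript is near identical to pseudogenes. Tet1, which oxidises methylcytosine, fell by 1.02 (adjusted p = 2.85e-04) from a mean of 3.24 CPM. The more counted Tet3, of the same family, rose by 0.96 (adjusted p = 1.07e-17), from a mean of 85.3 to 166 CPM. Of the methyltransferases that add new methylation, Dnmt3a fell by 0.78 and Dnmt3b rose by 0.44. Zfp57, whose core hexamer is marked in the promoters above, went from 364 and 394 counts to 258 and 237 and fell by 0.75 (SE 0.106, adjusted p = 9.43e-07). Its partner Trim28 fell by 0.30 (adjusted p = 6.20e-11), whereas the maintenance methyltransferase Dnmt1 rose by 0.17 (adjusted p = 3.43e-07).

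**Figure D4:**
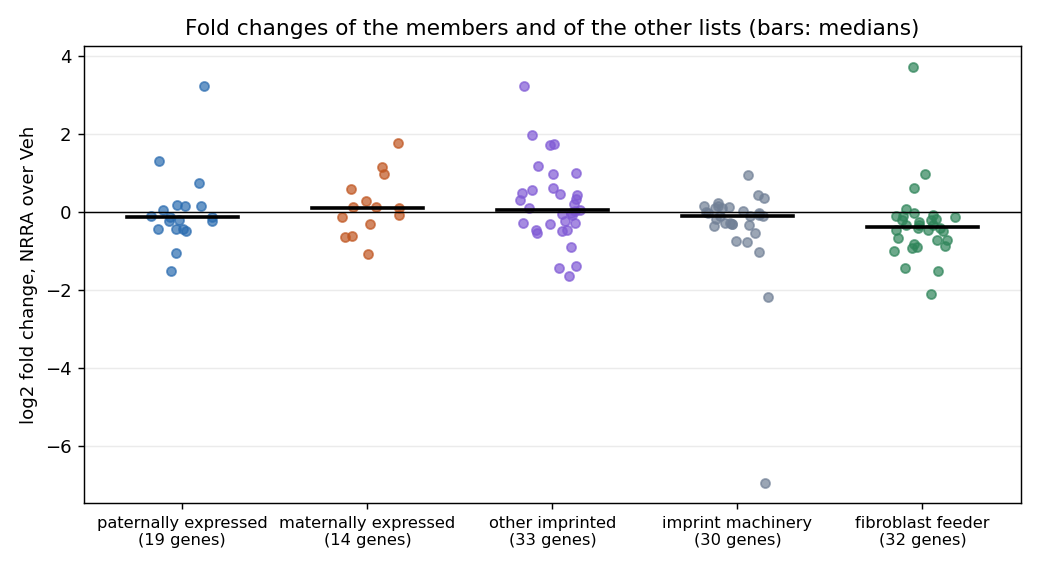
Log2 fold change (NRRA over Veh) of each tested gene in the 2 parental classes, in the other imprinted genes, in the imprint machinery and in the fibroblast feeder list; bars are medians (-0.14, 0.11, 0.06, -0.10 and -0.37). The lowest point is Dppa3, whose fitted value depends on the prior count and is no bound, since it had 4 and 0 counts in NRRA.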

How the data were processed

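Raw gene-level counts, not normalized, were deposited by the authors in a single table for 2 Veh and 2 NRRA libraries. The submitters' processing notes name STAR 2.6.1c, featureCounts 1.6.4 and mm10, and the strand setting is not given in the sources used here. Columns were matched to samples by the descriptions, and replicate numbers follow the sample titles: Veh replicates 1 and 2 are the columns that the authors numbered 2 and 3. Of 322 genes lying wholly in exons of another gene on the same strand, 1 had 10 or more counts, against 163 of 193 on the opposite strand, whose median counts per base were 1.05 times those of the host. A member and an opposite-strand partner can therefore share reads. Coordinates and overlaps are from GENCODE M21 (GRCm38), which held 99.7% of identifiers. edgeR 4.0.16 in R 4.3.3 compared NRRA with Veh (filterByExpr with a minimum count of 10, TMM, robust quasi-likelihood F test, Benjamini-Hochberg, 0.05), after being tested on simulated data. Fold changes are log2 NRRA over Veh. Alternatives were DESeq2 1.42.0, its size factors, library size alone, other filters, no robust estimation, a replicate block and leaving out each library.

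The genes named are all 35 members, markers of the cell types, the at least 2-fold called genes of the further imprinted and machinery lists, the most abundant further imprinted gene, chosen machinery genes and Stra8. The genes added to the loci were assigned to a class from textbook knowledge. Members and lists were chosen with earlier results of these data known. Genes named outside that rule (further genes of the cell type lists, Tet3, Dnmt3a, Dnmt3b and the overlapping partners) were chosen after their values were seen, as was the tie-break for the promoters shown. Counting intervals do not cover PCR copies.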

Additional observations from a re-analysis of the deposited data

How the results depend on the processing

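Of 384 values of members under 11 alternatives, 347 had the same sign and the same call as in the report, and 21 of 35 members did so under every alternative. Of the 24 called members, 15 kept their call throughout and 9 lost it under at least 1 alternative. Alternatives that leave out a library set 1 library against 2 and take their spread from the group of 2. A call lost in them can go with a fold about as large as in the report. For Mirg it was -0.645 in the report and between -0.69 and -0.596 with each library left out. In log2 fold changes, Igf2r turned to 0.0179 with library size alone. With each library left out in turn, Phlda2 ran from -0.317 (without Veh replicate 2) to 0.733, Usp29 from -0.312 to 0.0298 (without NRRA replicate 1) and Peg13 from -0.0111 (without Veh replicate 1) to 0.146. In the same way Airn ran from -0.225 to -0.0124, Snrpn from -0.268 to -0.0272 and Slc22a18 from 0.145 to 0.391, none being called. Scaling to library size alone shifted all genes by a median of 0.09, called 6962 higher and 4593 lower, 60.3% of calls being higher against 49.6% with TMM, called 12 members higher and 10 lower, and gave a paternal median of -0.0503 and a maternal median of 0.202. With each library left out in turn, the paternal median ran from -0.232 to -0.049, the maternal one from 0.00121 to 0.138, and the number of maternally expressed genes called lower from 3, without Veh replicate 2, to 6. With further imprinted genes added, a choice made after the data were seen, the change of the ratio between the classes turned to 0.629 at Dlk1-Meg3 and to 0.286 at Peg13-Trappc9. The summed paternal log2 ratio was -0.22 without Peg3 and the maternal one 0.10 without Igf2r.

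No pairing by replicate number was seen, as the differences between replicates 1 and 2 in Veh and in NRRA correlated at -0.01 over the tested genes. This does not show that the libraries were unpaired, since the labels do not give the cultures. With the replicate block, 5772 genes were called higher and 5836 lower, and 12 members rose and 14 fell, the 2 added being Plagl1 (0.15) and Grb10 (0.09). Rtl1 has no value under the stricter filter. With 2 libraries a group, small differences such as those of Trappc9 and Cd81 are at the edge of what these libraries resolve.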

Other observations

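Genes that overlap a member in exons, or that hold it in an intron, were also read, a choice made after the data were seen. Of 53 such genes in the table, 13 were tested, 3 rose and 4 fell, a share near the 56.4% called among all tested genes. Igf2os, on the strand opposite Igf2, went from 430 and 487 counts in Veh to 85 and 123 in NRRA and fell by 2.28 on the log2 scale (SE 0.142, edgeR adjusted p = 2.71e-13). Gm49394, on the strand of Igf2, went from 93 and 109 counts to 18 and 26 and fell by 2.33 (adjusted p = 3.06e-08). Igf2 itself fell by 0.45. Igf2os and Gm49394 overlap each other, so they are not independent, and which transcripts gave these counts was not tested. Over H19, the opposite-strand genes Gm27483 and Gm27786 rose by 0.80 and 0.41, beside 0.60 for H19. Where exons overlap, a member and its opposite-strand partner can share reads. The rises and falls counted here are therefore not separate from those of the members. Blcap, in whose intron Nnat lies, fell by 0.28 (adjusted p = 1.64e-05), beside -0.22 for Nnat, which was not called.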
